A study of Mus musculus with 8 samples.

Results

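A set of 9 genes of the adipogenic and lipid handling programme were followed in freshly sorted vascular mural cells of mouse skeletal muscle: Fabp4, Lpl, Cd36, Pparg, Cebpa, Adipoq, Plin2, Apoe and Apod. The members were the rows of the expression table whose symbol equals one of these names, and all 9 of 9 were found among 37979 listed genes. The study sorted pericytes and smooth muscle cells (SMCs) from hindlimb muscle and profiled each population by bulk RNA sequencing to screen for genes that mark pericytes. There were 4 pericyte libraries and 4 SMC libraries, numbered 1 to 4 in each group, all with the same batch label. Every cell came from Ai14+/-;SM22α-Cre+ mice of both sexes at 3 to 4 months of age. Both groups therefore carried the Ai14 tdTomato reporter and the Cre transgene, which is driven by the SM22α promoter and labels cells that have ever used it. Pericytes were gated as PDGFRβ+tdTomato- and SMCs as PDGFRβ+tdTomato+. The sort also used antibodies to CD31 and CD45, which mark endothelium and blood cells, and DAPI as a stain for dead cells, and kept only cells low for all of these. Several sorts were pooled for each library, so a library does not stand for 1 animal. The p-values below measure the spread between these pooled libraries.

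Fat cell differentiation is driven by a transcription factor pair, PPARγ (Pparg) and C/EBPα (Cebpa), which activate genes for taking up and storing fatty acids. Lipoprotein lipase (Lpl) releases fatty acids from circulating triglyceride, CD36 helps them enter the cell, the binding protein FABP4 carries them in the cytoplasm, and perilipin 2 (Plin2) coats the lipid droplets in which they are stored. Apolipoproteins E and D (Apoe, Apod) carry cholesterol and other small lipids outside the cell, and adiponectin (Adipoq) is the hormone that defines mature fat cells. In muscle, FABP4, CD36 and PPARγ are also well known from capillary endothelium, and fat cells between the fibres arise from PDGFRα-positive fibro-adipogenic progenitors.

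The PPARγ protein binds DNA as a partner of RXR at repeats of the nuclear receptor half-site AGGTCA, and the genes around it were therefore examined for these letters. RefSeq promoter sequences (GRCm38.p6, 250 bases before to 50 bases after the start site) matched 7 of the 9 genes with 11 promoters. Fabp4 and Lpl had no entry. AGGTCA was searched on both strands, as AGGTCA or TGACCT. It occurred in 4 of the 11 promoters, those of Plin2, Cd36 and 2 of the 3 listed for Pparg, against 16.3% of 32851 mouse promoters of the same length. These 4 are shown because they hold the half-site, 5′ to 3′ on the gene's strand, with the half-site in capitals. A match of 6 letters is a description of the sequence, not a bound site.
Plin2 (chr4:86670010-86670309, minus strand): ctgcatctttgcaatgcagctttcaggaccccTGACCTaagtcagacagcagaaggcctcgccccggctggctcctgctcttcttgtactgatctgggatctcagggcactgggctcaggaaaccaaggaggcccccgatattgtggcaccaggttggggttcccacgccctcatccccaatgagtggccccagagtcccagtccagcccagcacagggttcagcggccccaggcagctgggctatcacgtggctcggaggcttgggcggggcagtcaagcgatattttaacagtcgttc
Cd36 (chr5:17835847-17836146, minus strand): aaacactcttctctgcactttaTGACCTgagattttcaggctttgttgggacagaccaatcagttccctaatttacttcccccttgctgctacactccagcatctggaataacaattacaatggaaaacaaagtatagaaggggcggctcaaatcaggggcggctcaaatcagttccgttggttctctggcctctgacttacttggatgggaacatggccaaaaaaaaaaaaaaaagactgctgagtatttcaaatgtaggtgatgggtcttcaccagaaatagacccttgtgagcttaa
Pparg, first promoter (chr6:115360894-115361193, plus strand): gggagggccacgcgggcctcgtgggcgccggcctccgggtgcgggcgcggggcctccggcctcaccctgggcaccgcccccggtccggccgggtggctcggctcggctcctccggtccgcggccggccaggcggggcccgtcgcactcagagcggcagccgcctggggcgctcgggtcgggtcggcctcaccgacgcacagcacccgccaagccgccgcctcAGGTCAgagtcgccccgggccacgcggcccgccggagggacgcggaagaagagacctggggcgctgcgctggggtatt
Pparg, second promoter (chr6:115362099-115362398, plus strand): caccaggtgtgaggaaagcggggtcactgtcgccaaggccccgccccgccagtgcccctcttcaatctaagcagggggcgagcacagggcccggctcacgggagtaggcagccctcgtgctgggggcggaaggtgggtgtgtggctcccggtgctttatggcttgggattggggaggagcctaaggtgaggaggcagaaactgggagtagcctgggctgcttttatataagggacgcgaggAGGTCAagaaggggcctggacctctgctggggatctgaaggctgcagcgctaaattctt
The half-site began 218 bases before the start site in Plin2 and 228 bases before it in Cd36, in both as TGACCT. In Pparg it lay 28 bases before the first start site and 9 bases before the second, as AGGTCA. Among general promoter motifs, TATAAA occurred in 3 of the 11 promoters (13.6% of all promoters), CCAAT in 5 (37.4%) and GGGCGG in 4 (35.7%), each on either strand.

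Before the values are read, the sorted populations were checked against marker genes. Tagln, which encodes SM22α, ranged from 165 to 551 FPKM in pericytes and from 499.7 to 1569 FPKM in SMCs, where FPKM are sequenced fragments normalised to transcript length and to the mapped total. The ranges overlapped, and 0 of 6 smooth muscle markers passed the test between groups. Each of the 6 had a higher mean in SMCs, with a list median log2 difference of 1.38. Pdgfrb, the sorting antigen, was at 3.21 to 17.6 FPKM in pericytes and 15.6 to 91.5 FPKM in SMCs (limma q = 0.0973), and of 8 pericyte markers 1, Rgs5, was higher in SMCs, a share near the 11.2% of all genes tested. Markers of cells that the gates should have removed were measurable in both groups. All 7 lymphocyte markers were higher in pericytes, with a summed level of 1489 to 2639 FPKM against 20.2 to 41.2 FPKM in SMCs. Among them Ptprc, which encodes the gated antigen CD45, measured 80.6 to 230 FPKM in pericytes and 4.34 to 11.9 FPKM in SMCs (limma q = 4.0e-04). The total FPKM was 656405 to 782014 in 7 libraries and 1190440 in pericyte replicate 2. All 8 libraries had between 12713 and 13194 genes at or above 1 FPKM. Fewer cells of a type and less RNA per cell cannot be told apart in bulk libraries.

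Across the 9 genes, every SMC library lay above every pericyte library. By limma on log2(FPKM + 1), 8 of the 9 were higher in SMCs at q below 0.05, where 11.2% of the 27414 genes tested were, and 0 were higher in pericytes, where 10.6% were. Cebpa was the exception. Of these 8, 7, namely Fabp4, Lpl, Cd36, Pparg, Adipoq, Apoe and Apod, also exceeded a log2 difference of 2, the study's own size threshold, as did 2.66% of all genes tested. Groups were free of overlap with SMCs above in 9 of 9 members, against 12.5% of all genes. The median log2 difference of the 9 was 2.60, beside -0.02 for all genes tested. Among the 13349 genes at or above 1 FPKM in at least 4 libraries, 3040 were higher in SMCs. The 9 were chosen with earlier results of these data known, so these shares are a description and no test of enrichment. Together the 9 genes made up 0.124% to 0.202% of the summed FPKM in pericyte libraries and 1.31% to 1.81% in SMC libraries. The count of 8 fell to 6 without pericyte replicate 1, 3 or 4, when Adipoq and Plin2 missed the threshold, and stayed 8 without the high-total pericyte replicate 2.

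**Figure D1:**
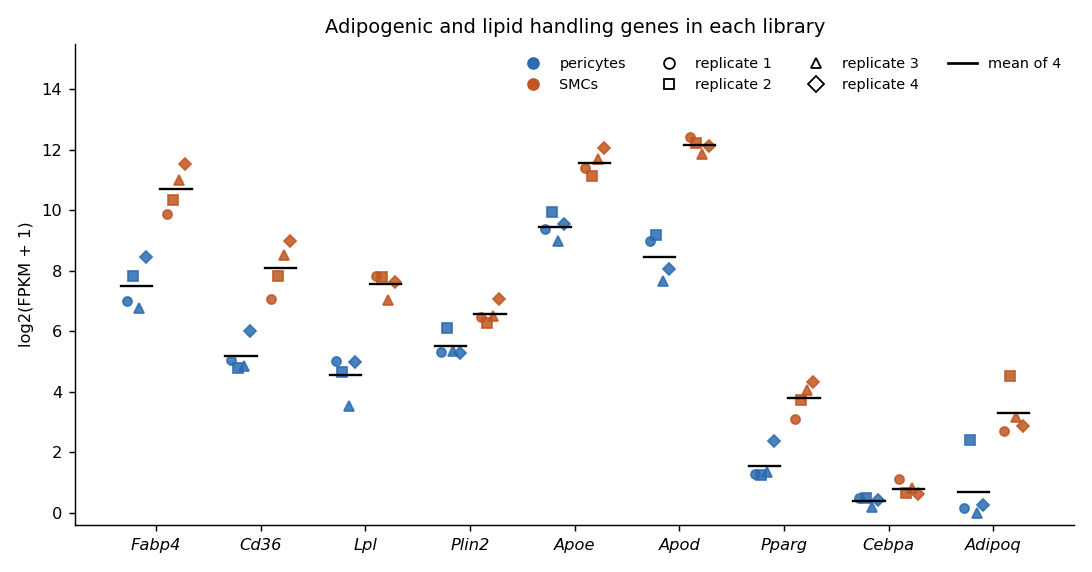
Level of the 9 genes in each library, as log2(FPKM + 1); colour gives the sorted population, marker shape the replicate number and the black line the mean of 4 libraries. The SMC points sit above the pericyte points for each gene, with the narrowest gaps for Cebpa and Plin2, and pericyte replicate 2 stands apart for Adipoq.

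The adipogenic regulators differed in level. Pparg, at chr6:115311239-115440419 on the plus strand (NCBI Build 37, ENSMUSG00000000440), measured 1.42, 1.38, 1.55 and 4.18 FPKM in pericyte replicates 1 to 4. In SMC replicates 1 to 4 it measured 7.58, 12.2, 15.8 and 19.2 FPKM. The lowest SMC library was above the highest pericyte library, replicate 4, which itself stood apart from the other 3 pericyte libraries. Means were 13.7 ± 4.98 FPKM in SMCs and 2.13 ± 1.37 FPKM in pericytes (SD, n = 4 each), a 6.42-fold ratio, and the log2 difference was 2.24 (SE 0.35, limma q = 0.00367). Cebpa, at chr7:35904312-35906945 on the plus strand (ENSMUSG00000034957), was under 2 FPKM in every library, with 0.400, 0.408, 0.151 and 0.353 FPKM in pericytes and 1.15, 0.570, 0.747 and 0.525 FPKM in SMCs. Its groups did not overlap, but the gap between pericyte replicate 2 and SMC replicate 4 was small. The log2 difference of 0.39 (SE 0.13, 95% interval 0.09 to 0.69) missed the threshold at limma q = 0.0735. With libraries rescaled to equal totals (TPM) or by quantiles, Cebpa passed at q = 0.0304 and q = 0.0309. The pseudocount of 1 compresses differences at such levels, and with 0.1 in its place the difference of Cebpa was 0.99.

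Adipoq, the product of mature fat cells, was the least even of the 9. The gene, at chr16:23146609-23158101 on the plus strand (ENSMUSG00000022878), measured 0.121, 4.29 and 0.185 FPKM in pericyte replicates 1, 2 and 4 and was listed at 0 in replicate 3. The SMC libraries held 5.48, 21.99, 7.89 and 6.23 FPKM. Replicate 2 was the highest library in both groups, and the groups did not overlap. The log2 difference was 2.60 (SE 0.64, 95% interval 1.09 to 4.11, limma q = 0.0261). With a pseudocount of 0.1 it was 4.45, outside that interval (q = 0.0201). This call was lost when any 1 of 6 libraries was left out (q up to 0.0848), and was retained without pericyte replicate 2 (q = 0.00489) or without SMC replicate 1 (q = 0.0484). The other 5 markers of mature fat cells did not pass the test. Plin1, the droplet coat of fat cells, did not exceed 0.274 FPKM in any library, Cidec, which fuses droplets, did not exceed 1.497 FPKM, and Lep, the hormone leptin, did not exceed 0.107 FPKM. Cfd, the complement factor adipsin, was uneven, from 0 to 3.17 FPKM in pericytes and from 0.0563 to 11.0 FPKM in SMCs, and exceeded Adipoq in pericyte replicates 1 and 4 and in SMC replicate 4. Retn, the hormone resistin, reached 1.47 FPKM in pericyte replicate 4 and did not exceed 0.432 FPKM in SMCs. Of 6 mature adipocyte markers 1 passed the test, Adipoq itself, and their summed level was 0.299 to 4.89 FPKM in pericytes and 6.16 to 22.3 FPKM in SMCs. No marker of that list was at 0 in all 4 libraries of a group.

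The genes of fatty acid delivery showed fold ratios of 8 to 9. Fabp4, at chr3:10204347-10208576 on the minus strand (ENSMUSG00000062515), measured 126, 228, 109 and 347 FPKM in pericytes. Its SMC libraries held 943, 1307, 2073 and 2968 FPKM, so that the lowest SMC library was 2.72-fold above the highest pericyte library. The mean was 1823 ± 897 FPKM in SMCs and 202 ± 109 FPKM in pericytes (SD, n = 4 each), with a log2 difference of 3.18 (SE 0.48, limma q = 0.0033). By mean FPKM, Fabp4 ranked 34 among the genes tested in SMCs and 687 in pericytes. Cd36, at chr5:17287508-17394777 on the minus strand (ENSMUSG00000002944), measured 32.4, 26.7, 27.9 and 63.5 FPKM in pericytes. In SMCs it was at 135, 228, 363 and 505 FPKM. Pericyte replicate 4 was again the highest of its group and SMC replicate 4 the highest of all. The mean of 308 ± 162 FPKM in SMCs against 37.6 ± 17.4 FPKM in pericytes (SD, n = 4 each) gave a log2 difference of 2.92 (SE 0.46, limma q = 0.00378).

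Lpl showed a smaller spread among SMC libraries. At chr8:71404390-71431347 on the plus strand (ENSMUSG00000015568), the gene measured 31.4, 24.2, 10.5 and 30.8 FPKM in pericytes and 228, 222, 131 and 198 FPKM in SMCs. Replicate 3 was the lowest library of both groups. The mean was 195 ± 44.3 FPKM in SMCs and 24.2 ± 9.71 FPKM in pericytes (SD, n = 4 each), and the log2 difference was 3.03 (SE 0.36, limma q = 0.00115).

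Plin2 had the smallest ratio of the 8 genes that passed. At chr4:86294290-86315964 on the minus strand (ENSMUSG00000028494), it measured 38.8, 67.7, 39.8 and 38.2 FPKM in pericytes and 87.4, 76.6, 89.3 and 131.8 FPKM in SMCs. Pericyte replicate 2 lay close to SMC replicate 2, while the other 3 pericyte libraries were within 2 FPKM of each other. The means differed 2.09-fold (96.3 ± 24.3 against 46.1 ± 14.4 FPKM, SD, n = 4 each), and the log2 difference was 1.06 (SE 0.24, limma q = 0.0181). Pericyte replicate 2 is the library with the high total. With every library rescaled to an equal sum (TPM), its Plin2 level was 56.9 TPM beside 48.9 to 56.2 TPM in the other pericyte libraries and 117 to 189 TPM in SMCs. Plin2 missed the threshold without pericyte replicate 1 (q = 0.0615), 3 (q = 0.0563) or 4 (q = 0.0516). It also missed it in a limma fit with a block for replicate number (q = 0.0673).

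The apolipoproteins were the most abundant of the 9. Apod, at chr16:31296278-31314894 on the minus strand (ENSMUSG00000022548), measured 502, 578, 202 and 266 FPKM in pericytes and 5537, 4743, 3719 and 4483 FPKM in SMCs. The SMC libraries lay close together, with the highest 1.49-fold above the lowest. At 4621 ± 750 FPKM against 387 ± 181 FPKM (SD, n = 4 each), Apod had the largest ratio of mean FPKM of the 9, 11.9-fold. Its log2 difference was 3.69 (SE 0.35, limma q = 4.1e-04). With a pseudocount of 0.1, Adipoq had the largest log2 difference, 4.45 against 3.69 for Apod. Only 6 of the genes tested had a higher mean FPKM in SMCs, where Apod ranked 7, and in pericytes it ranked 378. Apoe, at chr7:20281458-20284515 on the minus strand (ENSMUSG00000002985), measured 661, 992, 503 and 742 FPKM in pericytes and 2689.9, 2272, 3308 and 4311 FPKM in SMCs. All SMC libraries were more than 2-fold above the highest pericyte library. The mean of 3145 ± 886 FPKM against 725 ± 204 FPKM (SD, n = 4 each) gave a log2 difference of 2.12 (SE 0.26, limma q = 0.00134). The order of the pair turned between populations. On the FPKM scale, which is per length, Apoe exceeded Apod in 4 of 4 pericyte libraries and Apod exceeded Apoe in 4 of 4 SMC libraries.

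**Figure D2:**
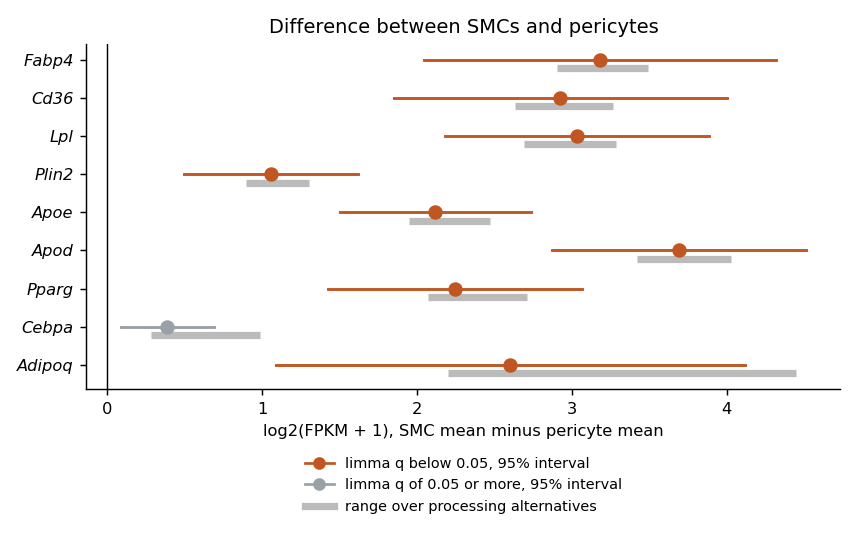
Difference in mean log2(FPKM + 1), SMC minus pericyte, for the 9 genes with the 95% interval from limma; the grey bar below each is the range of the estimate over 17 processing alternatives (16 for Cebpa). Every interval lies above 0, from 0.09 to 0.69 for Cebpa to 2.87 to 4.51 for Apod, and only Cebpa had a q of 0.05 or more.

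Ordered by mean FPKM, the pericyte levels ran Apoe, Apod, Fabp4, Plin2, Cd36, Lpl, Pparg, Adipoq and Cebpa. Ranges of neighbours in this order were apart only between Fabp4 and Plin2 and between Lpl and Pparg. In SMCs the order was Apod, Apoe, Fabp4, Cd36, Lpl, Plin2, Pparg, Adipoq and Cebpa, with ranges apart between Fabp4 and Cd36, between Plin2 and Pparg, and between Adipoq and Cebpa. Plin2 thus stood above Cd36 and Lpl in mean level in pericytes and below both in SMCs. None of the 9 genes overlaps another annotated gene.

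The SMC libraries did not vary alike for all 9 genes. Fabp4, Cd36 and Pparg were each lowest in SMC replicate 1 and highest in SMC replicate 4, with a span from lowest to highest of 3.15-fold, 3.75-fold and 2.53-fold. Of 12 endothelial markers 10 had the same lowest and highest SMC library, as had 5 of 6 smooth muscle markers, 6 of 8 pericyte markers, 5 of 11 macrophage markers and 2 of 7 lymphocyte markers. Pecam1, which encodes the gated antigen CD31, measured 102, 170.3, 216 and 301 FPKM in SMC replicates 1 to 4. Lpl and Apod followed another order, highest in replicate 1 and lowest in replicate 3. This order was shared by 3 of 8 fibro-adipogenic progenitor markers, Cd34, Pi16 and Dpt, and by 3 of 7 lymphocyte markers, Cd79a, Ms4a1 and Cd2. Of the other fibro-adipogenic markers, Col15a1 and Cd248 were lowest in replicate 2 and highest in replicate 4, Pdgfra and Ly6a were also highest in replicate 4, and Dpp4 was highest in replicate 2 and lowest in replicate 4. Pi16 measured 121, 80.2, 45.6 and 51.1 FPKM in the same libraries. Apoe and Plin2 were lowest in SMC replicate 2 and highest in replicate 4, as were 4 of 11 macrophage markers, 2 of 8 fibro-adipogenic, 2 of 8 pericyte, 1 of 12 endothelial and 1 of 6 smooth muscle markers. In pericytes, 6 of the 9 genes were lowest in replicate 3. The share of all genes with each of these orders was not counted, so the counts do not link a member to a cell type.

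Markers of these other cell types also differed between groups. Of 12 endothelial markers 10 were higher in SMCs, with a summed level of 857 to 2429 FPKM against 165 to 321 FPKM in pericytes. Among 8 fibro-adipogenic progenitor markers 7 were higher in SMCs, with sums of 1563 to 2462 FPKM against 315 to 699 FPKM. The eighth, Dpp4, had a log2 difference of -1.11 that did not pass (limma q = 0.0622). Pdgfra, the surface receptor that defines these progenitors, was at 36.1 to 46.8 FPKM in SMCs and 1.19 to 4.26 FPKM in pericytes (log2 difference 3.60, limma q = 2.1e-04). For macrophages, which make much apolipoprotein E, 7 of 11 markers were higher in SMCs, with sums of 1383 to 2067 FPKM against 897 to 1816 FPKM, and the abundant Lyz2 had a log2 difference of 0.08 (limma q = 0.892). Muscle fibre markers (0 of 7 passing, sums of 12.9 to 21.4 FPKM in pericytes and 18.3 to 30.4 FPKM in SMCs) and Schwann cell markers (0 of 5, sums of 103 to 657 FPKM and 108 to 344 FPKM) gave no call. No marker of the endothelial, fibro-adipogenic or macrophage list was at 0 throughout a group. The part of these cell types in the higher levels of the 9 genes in SMCs was not tested.

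**Figure D3:**
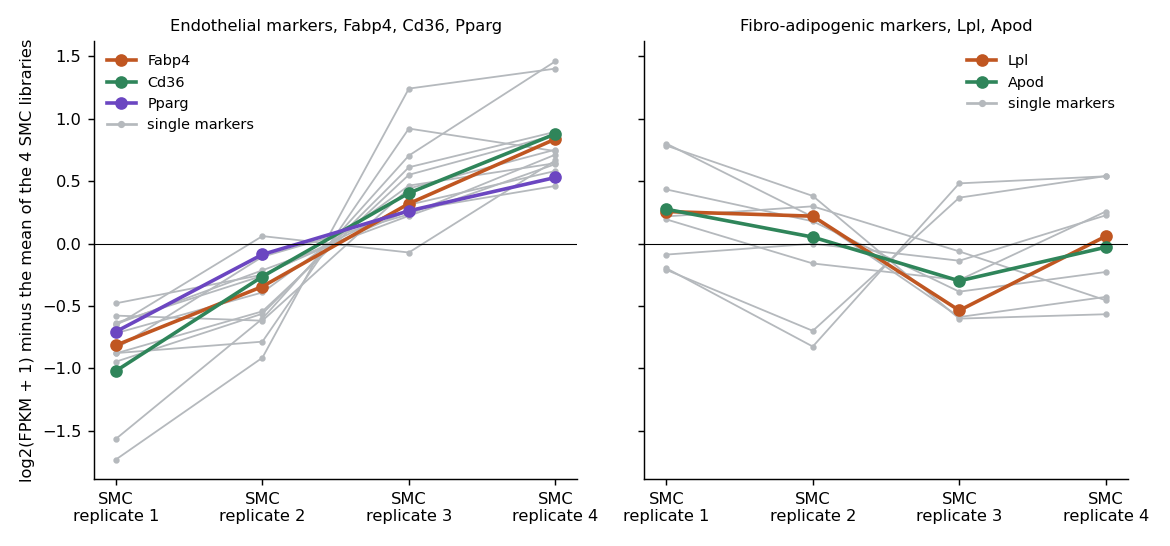
Deviation of log2(FPKM + 1) from the mean of the 4 SMC libraries, for endothelial markers with Fabp4, Cd36 and Pparg (left) and fibro-adipogenic markers with Lpl and Apod (right); lines join the values of 1 gene and imply no order of the replicates. Fabp4, Cd36 and Pparg are lowest in replicate 1 and highest in replicate 4, as are 10 of the 12 endothelial markers in grey, while Lpl and Apod are highest in replicate 1 and lowest in replicate 3, as are 3 of the 8 fibro-adipogenic markers. Neither order is particular to the markers drawn. The first was shared by 5 of 6 smooth muscle and 6 of 8 pericyte markers, and the second by 3 of 7 lymphocyte markers.

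The genes with the pattern most like each member were ranked by Pearson's r of log2(FPKM + 1) over the 8 libraries, among 13612 genes whose mean reached 1 FPKM. With libraries of 2 populations, r largely repeats the difference between them, and it is given as a description. Fabp4 was closest to C1qtnf9 (r = 0.998), followed by Cdk15 and Apol10b. Cd36 was closest to Eltd1 (r = 0.996), Cav2 and Nudt12, and Pparg was closest to Cd36 itself (r = 0.995), the water channel gene Aqp1 and Pdia5. For Lpl the nearest genes were Sdc2 (r = 0.997), Ms4a4d and Mill2, and for Apod they were Srpx (r = 0.999), Cst6 and the matrix proteoglycan gene Lum. Apoe was closest to the selenium carrier gene Sepp1 (r = 0.996), Thbs3 and Cltb. The nearest genes to Plin2 were Kcp (r = 0.9747), Cryzl1 and Cox7a1, and those to Adipoq were Ccdc46 (r = 0.976), Ube2v2 and AW146154. Cebpa was too low to rank.

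The 9 genes belong to a larger programme, which was read from 13 lists of lipid genes. These lists, like the 9, were chosen with earlier results of these data known, so counts from them are a description and no test of enrichment. Outside the 9, 168 of 171 list genes could be tested, 41 (24.4%) being higher in SMCs and 10 (5.95%) in pericytes, with a median log2 difference of 0.28 beside -0.02 for all genes. Over all genes tested the shares were 11.2% and 10.6%. These shares include genes near 0. Among the 13349 genes at or above 1 FPKM in at least 4 libraries, 3040 were higher in SMCs and 2947 in pericytes, larger shares than over all genes tested. Over the lists, the 9 included, this filter gave 50 and 11. Counts over the lists and over all genes both depended on single libraries. With the 9 included, 49 were higher in SMCs and 10 in pericytes, and without pericyte replicate 3 these were 32 and 5, while the counts over all genes went from 3060 and 2917 to 2339 and 2374. Those higher in pericytes were 6 without pericyte replicate 1, SMC replicate 2 or SMC replicate 3, and 17 with replicates 1 and 2 against 3 and 4 as a covariate, which gave 59 higher in SMCs, and 3929 and 3794 over all genes. Their split varied by process. Among 17 adipogenic transcription factors, 7, Pparg among them, were higher in SMCs and 0 in pericytes, with a list median of 0.80. Any further entry of Ebf1 listed at 0 in every SMC library was left out of the list counts. Ebf2, an early factor of brown and beige fat precursors, was at 22.3 ± 9.12 FPKM in SMCs and 2.92 ± 1.39 FPKM in pericytes (SD, n = 4 each; log2 difference 2.57, limma q = 0.00274). Zfp423, a factor of fat cell commitment, had a difference of 1.80 (q = 0.00698) and Nr1h3, the sterol receptor LXRα, of 1.95 (q = 0.0289). Cebpd, which acts early in differentiation, had a difference of 2.73 but a wide spread (SE 0.84, q = 0.0579). Of 7 restrainers of adipogenesis 2 were higher in SMCs, Gata2 (1.84, q = 0.0245) and the preadipocyte factor Dlk1 (1.68, q = 0.00135), and 1 was higher in pericytes, Gata3 (-2.40, q = 0.00338), which is also a T cell factor. Gata3 was higher in the same libraries as the lymphocyte markers, whose part in it was not tested. Among 14 mature adipocyte genes 2 were higher in SMCs, Adipoq and Thrsp, a nuclear regulator of lipid synthesis (2.53, q = 0.00198), a share near the 11.2% of all genes, and the call of Adipoq was lost in 7 of 17 alternatives.

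Around Lpl, 6 of the 11 tested genes of the lipoprotein lipase system, Lpl among them, were higher in SMCs and 0 in pericytes. Over all genes tested the shares were 11.2% and 10.6%. Gpihbp1, which anchors the lipase to capillary endothelium and is also one of the endothelial markers above, was at 231 ± 100.02 FPKM in SMCs and 31.7 ± 11.6 FPKM in pericytes (SD, n = 4 each; log2 difference 2.79, limma q = 0.00228). Angptl4, an inhibitor of the lipase, had a difference of 2.16 (q = 5.6e-04) and Vldlr, a lipoprotein receptor, of 1.80 (q = 0.00197). Around Cd36 and Fabp4, 5 of 20 uptake and binding genes, that pair among them, were higher in SMCs and 0 in pericytes. The list median was 0.13, and 11.2% of all genes tested were higher in SMCs. Besides that pair, the called uptake genes were the acyl-CoA synthetase gene Slc27a3 (2.25, q = 0.00101), the heart-type binding protein gene Fabp3 (1.05, q = 0.00548) and Acsl3. Acsl3 (1.09, q = 0.0482) kept its call in 4 of the 17 alternatives. Fabp5, the other abundant binding protein, was at 176 ± 54.5 FPKM in SMCs and 114 ± 77.2 FPKM in pericytes (SD, n = 4 each), a difference of 0.79 that did not pass (q = 0.306). Around Plin2, 6 of 17 droplet and lipolysis genes, Plin2 among them, were higher in SMCs and 0 in pericytes. They included Plin3 (1.14, q = 0.00301), the monoglyceride lipase gene Mgll (1.92, q = 0.0386) and the lipase inhibitor gene G0s2 (1.51, q = 0.0389).

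Triglyceride synthesis was the list with more genes higher in pericytes than in SMCs. It had 3 of 13 higher in pericytes, where 10.6% of all genes tested were, and 1 higher in SMCs, where 11.2% were. Among genes at or above 1 FPKM in at least 4 libraries, 2947 of 13349 were higher in pericytes, a share near 3 of 13. The count is therefore not read as a feature of this list. Its median was -0.52. Dgat1, which performs the last step of triglyceride assembly, was at 149 ± 58.9 FPKM in pericytes and 37.9 ± 3.65 FPKM in SMCs (SD, n = 4 each; log2 difference -1.87, limma q = 0.00261). The acyltransferase gene Agpat3 had a difference of -1.92 (q = 9.7e-05) and Lpin3, a phosphatidate phosphatase, of 1.53 (q = 0.00407). Agpat9 had -1.10 (q = 0.0348), and its call was kept in 8 of the 17 alternatives. The 7 lymphocyte markers were higher in the same pericyte libraries, and their part in the levels of Dgat1, Agpat3 and Agpat9, or of the other list genes higher in pericytes, was not tested. Fatty acid synthesis had 3 of 13 genes higher in SMCs, the desaturases Fads1 (1.89, q = 9.9e-04) and Fads2 (1.78, q = 0.0157) and malic enzyme Me1 (1.01, q = 0.00135), and 0 higher in pericytes. Fatty acid synthase itself, Fasn, had a difference of -0.61 (q = 0.331).

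Beside Apoe and Apod, 2 more of the 12 tested apolipoprotein genes were higher in SMCs and 0 were higher in pericytes. One was Clu, clusterin or apolipoprotein J, at 492 ± 38.8 FPKM in SMCs and 60.4 ± 9.76 FPKM in pericytes (SD, n = 4 each; log2 difference 3.02, limma q = 1.8e-05). Apoa4 and Apoc3 were listed at 0 in every library, and so was Hmgcs1 of the sterol synthesis list. A listed 0 was therefore not read as absent expression. Among 12 lipoprotein receptors, which include Cd36, 4 were higher in SMCs and 2 in pericytes. Lrp1, a receptor for apolipoprotein E, had a difference of 1.79 (q = 0.0111), whereas the sorting receptor gene Sorl1 had -2.06 (q = 0.0141) and the apolipoprotein E receptor gene Lrp8 had -1.11 (q = 0.00557). In cholesterol handling, 4 of 13 genes were higher in SMCs, Nr1h3 above, Lcat and the sterol hydroxylases Ch25h (2.79, q = 5.8e-05) and Cyp27a1 (1.39, q = 0.0045), and 1 was higher in pericytes, the late endosomal cholesterol transporter gene Npc1 (-0.78, q = 0.0462). Lcat, which esterifies cholesterol on lipoproteins, had a difference of 1.04 (q = 0.0118). Sterol synthesis showed 2 of 20 tested genes higher in SMCs, the squalene synthase gene Fdft1 (1.14, q = 0.00313) and Sc4mol (0.76, q = 0.0303), and 1 in pericytes, Mvd (-0.76, q = 0.0238). Over all genes tested the shares were 11.2% and 10.6%, and they were larger among genes at or above 1 FPKM in at least 4 libraries. The small counts for sterol synthesis were not tested against either share. Fatty acid oxidation showed 6 of 18 higher in SMCs, among them the carnitine acyltransferase gene Cpt2 (1.39, q = 0.00386) and the dehydrogenase genes Acadm (0.93, q = 0.0021) and Hadh (0.67, q = 0.0201), and 2 higher in pericytes. Pdk4, which restrains glucose use, had a difference of 1.33 (q = 0.0300). The calls of Nr1h3, Gata2, Acsl3, Mgll, G0s2, Agpat9, Sc4mol, Mvd and Pdk4 were each lost in 7 or more of the 17 alternatives.

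**Figure D4:**
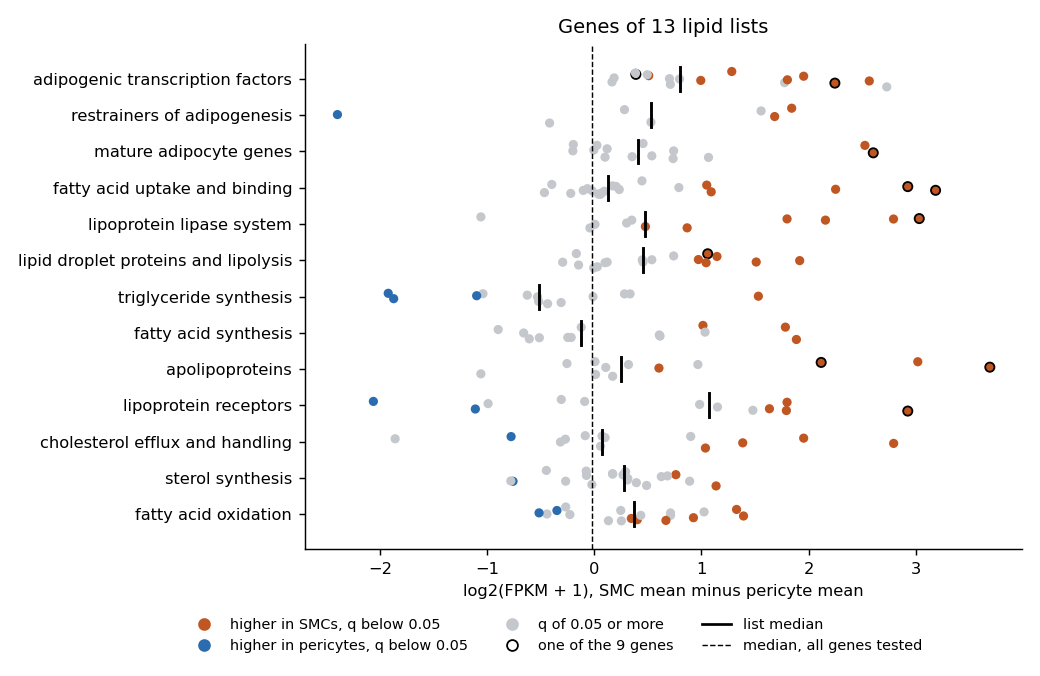
Difference in mean log2(FPKM + 1), SMC minus pericyte, for the tested genes of 13 lipid lists; colour marks the limma call, rings mark the 9 genes, the short bar is the list median and the dashed line is the median of all genes tested. List medians run from -0.52 for triglyceride synthesis to 1.07 for lipoprotein receptors, and the ringed genes other than Cebpa lie to the right of their list median.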

How the data were processed

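Per the labels and the study's methods, RNA of sorted cells was amplified with an ultra-low input kit, made into Nextera XT libraries and sequenced in pairs. The authors checked reads with FastQC, used Bowtie2 and TopHat to align them to NCBI Build 37 with an Ensembl annotation, and deposited 1 FPKM value per gene and library. The program that computed FPKM and its use of strand are not given in the sources used here. FPKM keep no read totals. Ratios of low FPKM gave relative depths of 0.867 to 1.07, so depth varied little and its absolute value is unknown.

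Genes above 0 in at least 1 library (27414 of 37979) were fitted as log2(FPKM + 1) by limma 3.58.1 (R 4.3.3), pericytes against SMCs, after the study's choice of tool. The test was two-sided with Benjamini-Hochberg q over all 27414 genes and a threshold of 0.05. Fold ratios are of mean FPKM, and log2 differences include the pseudocount, which understates low genes. The script was tested on simulated data. It recovered 10 of 50 changes of log2 size 1, 35 of 50 of size 2 and 49 of 50 of size 3. A gene that missed the threshold is therefore not shown to be unchanged. Gene positions came from GENCODE vM1. Tables were handled with pandas 2.3.3.

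The 9 genes, the lipid lists and the marker lists were chosen with earlier results of these data known. Named beside the 9 were, from each list, up to 4 genes of largest difference with q below 0.05 and a mean of 1 FPKM or more in a group, markers that moved with a member, and the 3 genes most correlated with each member. Fabp3, Fabp5, Cebpd, Fasn, Lrp8, Npc1, Plin1, Cidec, Lep, Cfd, Retn and Hmgcs1 were added after their values were seen. So were the markers Tagln, Pdgfrb, Ptprc, Lyz2, Col15a1, Cd248, Ly6a and Dpp4. Alternatives were another pseudocount, other filters, 3 scalings, a replicate block, a covariate for replicates, an intensity trend and leaving out each library.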

Additional observations from a re-analysis of the deposited data

Results flagged for a closer look

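In all, 3 of 18 groups of 4 libraries held a library far from the other 3, judged by the gap to its nearest neighbour as a part of the group's range. Chance gives such a gap in about 1 in 20 groups, or 0.9 of 18. Pparg was at 4.18 FPKM in pericyte replicate 4, with the other pericyte libraries at 1.38 to 1.55 FPKM. Adipoq was at 4.29 FPKM in pericyte replicate 2, with the others between 0 and 0.185 FPKM. Plin2 was at 67.7 FPKM in pericyte replicate 2, with the others at 38.2 to 39.8 FPKM. Scaled to equal totals, that library's level of Plin2 was 56.9 TPM, beside 48.9 to 56.2 TPM in the other pericyte libraries. Adipoq in the same library was at 3.60 TPM after this scaling, beside 0 to 0.236 TPM, and still stood apart.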

How the results depend on the processing

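Fabp4, Lpl, Cd36, Pparg, Apoe and Apod kept their call and direction under all 17 alternatives, and no member changed direction under any. Cebpa could not be tested with a filter of 1 FPKM in 4 libraries. Members higher in SMCs numbered 7 with all listed genes tested, where Adipoq was lost (q = 0.0602), 9 with TPM or quantile scaling, and 6 to 8 when 1 library was left out. TPM scaling moved the median of genes whose mean reached 1 FPKM by 0.23 (log2) towards SMCs and gave 3734 genes higher in SMCs and 2117 higher in pericytes, against 3060 and 2917.

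Over the 13 lists, 10 genes were higher in pericytes. The count was 6 with all listed genes tested, 6 with TPM scaling, 17 with replicates 1 and 2 against 3 and 4 as a covariate, and 5 to 14 when 1 library was left out, at 6 without pericyte replicate 1, SMC replicate 2 or SMC replicate 3 and 5 without pericyte replicate 3. The count higher in SMCs, 49, became 32 to 46 when 1 library was left out, lowest without pericyte replicate 3, and 34 to 59 over the other alternatives, highest with the covariate. The cause was not tested. No list gene named by the rule changed direction.

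Deviations of libraries that share a number had correlations of 0.0794 to 0.474 (mean 0.327, 13612 genes), beside a mean of -0.110 for other numbers. Deviations from a group mean sum to 0 for each gene, so positive correlations in some pairs bring negative ones in others. The negative values here and below are therefore no separate result. Since 5 of 8 libraries were closest to their own number, the numbers were not taken as pairs. Across groups, correlations were positive within replicates 1 and 2 and within 3 and 4 (0.0794 to 0.538). Between these sets they were negative (-0.102 to -0.451). This split was the covariate above, under which 8 members were higher in SMCs. A replicate block gave 7 members higher in SMCs, losing Plin2 (q = 0.0673), 3175 genes higher in SMCs and 2978 in pericytes over all genes, and 41 and 9 over the lists.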
